A study of Mus musculus with 4 samples.

Results

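The signals of prostaglandin D synthase and 6 other enzymes of prostaglandin metabolism were examined in the anterior and posterior lobes of the mouse cerebellum. On the array these genes carry the symbols PTGDS, PTGS1, PTGS2, PTGES, PTGES2, PTGES3 and HPGD, and every probe with one of these symbols was taken, which gave 11 of 45281 probes and 7 of 30854 symbols. The genes were chosen with the signal of Ptgds in both lobes already known, so the differences of these 7 genes between the lobes are given as a description, with no p-value. RNA came from dissected lobes of Swiss mice at postnatal day 7, without any treatment, with 2 samples of the anterior lobes and 2 of the posterior lobes, each on 1 Illumina MouseWG-6 v2.0 array. The labels do not say how many animals a sample holds, or whether the lobes with the same replicate number came from the same animals. The p-values below measure only the spread between these samples.

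Prostaglandins are made from arachidonic acid, which phospholipases release from membranes. The cyclooxygenases Ptgs1 and Ptgs2 turn it into prostaglandin H2, from which the terminal synthases make the prostaglandins D, E, F and I and thromboxane. In the brain the D form is made mainly by Ptgds, a secreted protein of the lipocalin family that also binds retinoids and is a major protein of cerebrospinal fluid. Its known sources are the leptomeninges, the choroid plexus and oligodendrocytes.

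The region before the transcription start of Ptgds is shown because the values below turn on this gene, and that of Ptges3 because it was the other measured enzyme with a higher signal on both posterior arrays. Each line gives the 250 bases before the start on the strand of the gene, 5′ to 3′, from RefSeq on the mouse build GRCm38.p6, and the capitals mark matches to the E-box letters CANNTG. The window of Ptgds is at chr2:25469750-25469999 on the minus strand and that of Ptges3 at chr10:128058732-128058981 on the plus strand.
Ptgds: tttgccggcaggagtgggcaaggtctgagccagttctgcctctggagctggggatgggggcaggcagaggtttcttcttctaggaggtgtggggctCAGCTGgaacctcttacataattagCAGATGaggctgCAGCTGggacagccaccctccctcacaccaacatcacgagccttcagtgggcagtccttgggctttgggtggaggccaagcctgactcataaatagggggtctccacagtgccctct
Ptges3: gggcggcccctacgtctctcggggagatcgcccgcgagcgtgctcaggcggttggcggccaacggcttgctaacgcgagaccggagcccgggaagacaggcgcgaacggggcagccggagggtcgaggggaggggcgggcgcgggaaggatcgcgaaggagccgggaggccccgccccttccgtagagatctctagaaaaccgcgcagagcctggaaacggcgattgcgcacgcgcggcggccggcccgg
The Ptgds window held 3 E-boxes, which began 154, 129 and 117 bases before the start, and 58.4% of its bases were G or C with 2 CpG pairs. Of 32851 windows of the same length, 66.2% held an E-box on at least one strand and 29.0% had 2 CpG pairs or fewer. The Ptges3 window had no E-box, 73.2% G or C and 38 CpG pairs, a number that 1.88% of windows reached. It held 3 copies of the GC box GGGCGG, counted on both strands, at 250, 118 and 79 bases before the start, a motif present in 32.7% of windows. The median window had 52.4% G or C and 6 CpG pairs. On both strands of the Ptgds window there was no match to TAATCC, the core letters bound by Otx proteins (6.25% of windows), to TATAAA (12.4%), to CCAAT (33.8%) or to the GC box. Among the other 5 genes, the windows of Ptgs1, Ptgs2 and Hpgd held 2 E-boxes each and those of Ptges and Ptges2 held 1 each. These matches are letters in a window and were not set against any measurement of binding.

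The 4 arrays were alike in depth. Each probe was read from a median of 40 to 42 beads, the median deposited intensity was between 110.2 and 129.6, and 46.5% to 47.6% of the probes were detected, which means a detection p-value under 0.05 against the negative control probes. A probe was tested when it was detected on at least 2 arrays, which held for 21726 probes of 15615 symbols. The probes of Xist, the transcript of the inactive X chromosome, separated the replicate numbers in both lobes. Xist probe ILMN_2475156 had a normalized log2 signal of 13.05 on anterior replicate 1 and 13.01 on posterior replicate 1, against 7.07 and 6.83 on the arrays of replicate 2. The replicate numbers therefore go with the Xist signal in both lobes alike, and each lobe held 1 array with a high and 1 with a low signal. Replicates 1 and 2 of a lobe are thus not repeat arrays of one animal or pool. From Xist alone, a sample of females cannot be told apart from a pool of both sexes. The tissue label was checked against 9 genes of cerebellar granule and Purkinje neurons, of which 7 were detected. Cbln1, the cerebellin of granule cells, had log2 signals of 14.65, 14.68, 14.63 and 14.60 in the order anterior 1, anterior 2, posterior 1 and posterior 2, and Pcp2 of Purkinje cells had 14.08, 14.06, 13.91 and 13.98 on its brighter probe. Calb1 and Car8 did not reach detection on 2 arrays.

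Of the 7 genes, 5 had a probe that passed the detection filter, each a single probe, and the cyclooxygenases had none. Ptgds had a much higher signal in the posterior lobes. Its only probe, ILMN_1248316, had a deposited intensity of 263.3 and 255.5 on the anterior arrays and of 2438.3 and 4055.5 on the posterior arrays. The standard errors over its 30 to 32 beads were 11.6, 11.9, 78.1 and 206.8 in the same order, 3.20% to 5.10% of the intensity. They cover the reading of 1 array only. Both posterior values lay far above both anterior values, and the probe was detected on all 4 arrays, so the anterior signal was low but measured.

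After quantile normalization the log2 signal of Ptgds was 7.91 and 8.13 in the anterior and 11.29 and 11.96 in the posterior lobes. The mean over the anterior arrays was 8.02 ± 0.15 (SD, n = 2) and that over the posterior arrays 11.62 ± 0.47 (SD, n = 2), a log2 difference of 3.61, or 12.2-fold. Taking each posterior array against each anterior array, the ratio was 8.97 to 16.5 after normalization and 9.26 to 15.9 on the deposited scale. Among the 21726 tested probes only 2 had a larger absolute difference. These are the values on which the gene was chosen. In bulk RNA of a lobe, a smaller number of the cells that make a transcript and less of it per cell cannot be told apart.

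The replicates differed too, and this contrast played no part in the choice of the genes. Within the posterior lobes the log2 signal of Ptgds was 0.66 higher on replicate 2 than on replicate 1, or 1.58-fold, while the median absolute difference between these arrays was 0.092. Of the tested probes 99.3% differed by less. Within the anterior lobes replicate 2 was 0.22 higher after normalization, which 68.3% of the tested probes did not reach, and on the deposited scale its ratio to replicate 1 was 0.970. The Ptgds signal thus differed more between the posterior arrays than between the anterior ones, where the direction depended on the scale.

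The cyclooxygenases, which make the common precursor, were near background in both lobes. None of the 3 probes of Ptgs1, the constitutive form, passed the filter. Probe ILMN_1233864 had a deposited intensity of 118.4, 118.4, 110.5 and 115.8 and was detected on anterior replicate 2 alone, with a detection p-value of 0.045. The other Ptgs1 probes were not detected on any array, with detection p-values of 0.50 to 0.73 for ILMN_1224866 and of 0.11 to 0.21 for ILMN_1239239. Ptgs2, the inducible form, had 2 probes, neither detected on any array. Their detection p-values were 0.36 to 0.63 for ILMN_1231600 and 0.51 to 1.00 for ILMN_2717913. No fold between the lobes is given for either gene, since these signals could not be separated from the negative controls.

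The E synthases were measured in both lobes. Ptges, the inducible membrane enzyme, had a deposited intensity of 262.1, 257.0, 267.3 and 247.0 on probe ILMN_2786442, and the posterior values lay on either side of the anterior ones. The normalized log2 mean was 8.02 ± 0.16 (SD, n = 2) for the anterior and 8.01 ± 0.089 for the posterior arrays, which differ by -0.010. Its second probe, ILMN_2616028, was not detected on any array. Ptges2, a membrane-bound E synthase of the Golgi, had intensities of 570.4, 588.7, 537.6 and 606.0 on ILMN_2639527, with overlapping lobes and a log2 difference of 0.0029.

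Ptges3, the cytosolic E synthase that is better known as the Hsp90 co-chaperone p23, had intensities of 322.5 and 229.0 on the anterior and 434.1 and 330.5 on the posterior arrays (ILMN_2674720). The lobes did not overlap, although posterior replicate 2 lay close above anterior replicate 1. The normalized log2 mean was 8.08 ± 0.16 (SD, n = 2) for the anterior and 8.58 ± 0.30 for the posterior arrays, a difference of 0.50 or 1.41-fold. Within each lobe replicate 2 was the lower one, by -0.23 between the anterior and -0.42 between the posterior arrays. After normalization its replicates were thus ordered the opposite way to those of Ptgds. On the deposited scale this held for the posterior arrays only.

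Hpgd, the dehydrogenase that starts the breakdown of prostaglandins, had intensities of 417.5 and 327.9 in the anterior and 332.0 and 352.2 in the posterior lobes (ILMN_2649199). The normalized log2 signals of 8.57 and 8.48 in the anterior and 8.39 and 8.46 in the posterior lobes did not overlap, and the difference was -0.099. Anterior replicate 2 and posterior replicate 2 were only slightly apart, and on the deposited scale the lobes did overlap.

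**Figure D1:**
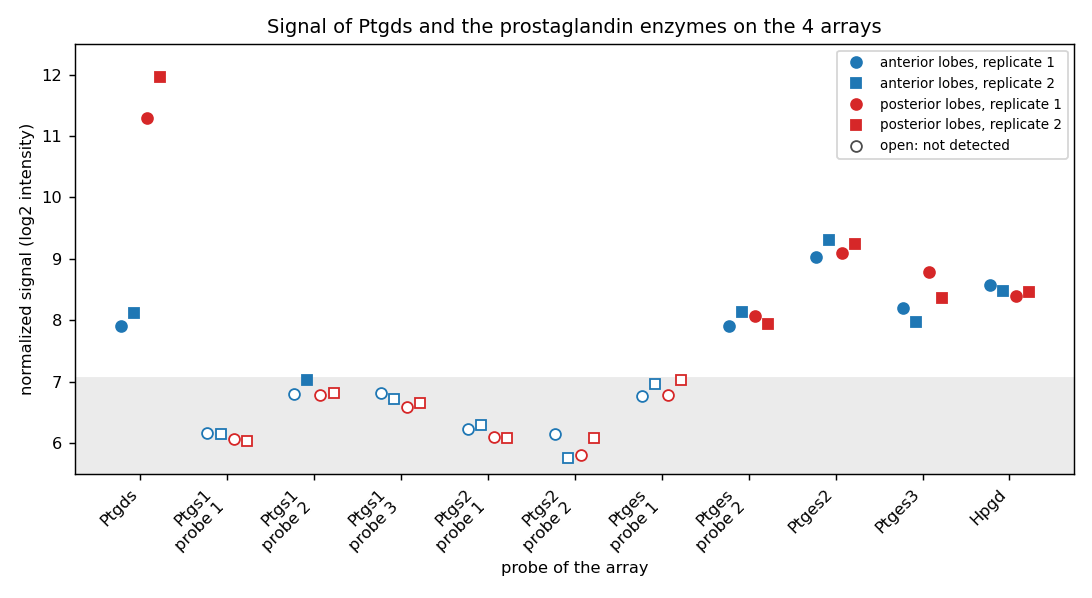
Normalized log2 signal of the 11 probes on the 4 arrays, anterior lobes in blue and posterior lobes in red, circles for replicate 1 and squares for replicate 2. Open symbols are not detected, and the grey band ends at 7.06, the highest of the lowest detected signals on the arrays. The posterior symbols of Ptgds stand at 11.29 and 11.96, far from its anterior symbols, while those of Ptges, Ptges2 and Hpgd lie close together and the Ptgs1 and Ptgs2 probes lie in the band.

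Of the 5 measured genes, Ptgds, Ptges3 and Hpgd had lobes that did not overlap, which held for 49.7% of all 15615 tested symbols in either direction. Ptgds and Ptges3 lay beyond 1.2-fold with an unadjusted p under 0.05 by limma, which 10.1% of all tested symbols did. These are the limits of fold and p that the study used, with the p of limma in place of the methods' t-test, and they are called the 1.2-fold criterion below. Ptgds alone also passed an adjusted p of 0.05 by limma, as did 0.128% of all tested symbols. Because the genes were chosen on this contrast, nothing is read from these counts.

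The rest of the pathway lay close to 0 beside the difference of Ptgds. Lists of substrate release, other terminal synthases, receptors, transport and breakdown, the lipoxygenase branch and the lipocalin relatives of Ptgds held 49 genes, of which 47 had a probe and 26 were tested. None passed the adjusted p by limma, where the lowest value was 0.38, and 2 had an unadjusted p under 0.05. These were Mgll and Alox5, both past the 1.2-fold criterion and both lower in the posterior lobes, which is 7.69% of the 26 genes. The log2 differences over the brightest probe of each gene ran from -0.35 to 0.23 with a median of -0.020, while the median of all tested probes was 0.0023. In 13 of the 26 genes a probe had lobes that did not overlap, 7 of them higher and 6 lower, near the 49.7% of all tested symbols. Leaving out an array leaves its lobe with 1 sample, which is then assumed to vary like the pair of the other lobe. The spread so comes from that pair alone, and the replicate differences of all tested probes had an SD, on the log2 scale, of 0.32 for the anterior pair and 0.20 for the posterior pair. Fitted in this way without anterior replicate 1, Mgll, Slco2a1 and Slco3a1 passed the adjusted p, all lower in the posterior lobes, and 6 genes passed the 1.2-fold criterion, while without either posterior array 1 gene did. With the methods' t-test 1 gene passed it and none passed the adjusted p.

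Substrate release was measured for 6 of 10 genes. Mgll, the monoacylglycerol lipase that supplies arachidonic acid in the brain from the endocannabinoid 2-AG, had log2 signals of 9.73 and 9.92 in the anterior and 9.50 and 9.25 in the posterior lobes on ILMN_2592925. Its difference of -0.45 had a standard error of 0.14 and an adjusted p of 0.39 by limma, and its other probes were at -0.32 and -0.21, with both lobes apart on each. Of the phospholipases, Pla2g6 was at -0.23 and Pla2g3 at -0.20, neither past the criterion. Pla2g4a, the cytosolic enzyme most tied to prostaglandin synthesis, did not reach detection on 2 arrays.

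All 6 other terminal synthases were measured. Hpgds, the haematopoietic enzyme that makes prostaglandin D2 in immune cells and is listed on the array as PTGDS2, had log2 signals of 7.60 and 7.41 in the anterior and 7.65 and 7.55 in the posterior lobes. Its lobes overlapped, and the difference of 0.093 had a 95% interval from -0.20 to 0.39 by limma, that is from 0.871-fold to 1.31-fold. Tbxas1, the thromboxane synthase, was at 0.23 with 7.42 and 7.44 against 7.70 and 7.63, and an adjusted p of 0.53 by limma. Akr1b3, an F synthase, was at 0.13, and Ptgis, the prostacyclin synthase, at 0.15 with overlapping lobes.

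Few receptors gave a signal. Of 10 receptor genes only the thromboxane receptor Tbxa2r and Ptgfrn, a partner of the F receptor, were tested, with differences of -0.023 and -0.043 and overlapping lobes. Ptgdr and Ptgdr2, the receptors for prostaglandin D2, were not detected on any array. Among 5 genes of transport and breakdown 2 had a probe whose lobes did not overlap, namely Ptgr1, a reductase of prostaglandin breakdown, at 0.15, and the transporter Slco2a1 at -0.13. The other Slco2a1 probes, at -0.24 and -0.020, and those of the transporter Slco3a1, at -0.30 and -0.11, had overlapping lobes.

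In the lipoxygenase branch, which uses the same substrate, 5 of 9 genes were tested. Alox5, the lipoxygenase of leukotriene synthesis, had log2 signals of 7.55 and 7.62 in the anterior and 7.19 and 7.29 in the posterior lobes, a difference of -0.35 (standard error 0.10, adjusted p = 0.38 by limma). Its partner Alox5ap was at 0.24 and 0.0085 on its probes and Ltc4s, the leukotriene C4 synthase, at 0.23. Of the lipocalin relatives, Apom was at -0.065 and C8g at 0.013, and 6 others including Rbp4 and Lcn2 did not reach detection on 2 arrays.

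**Figure D2:**
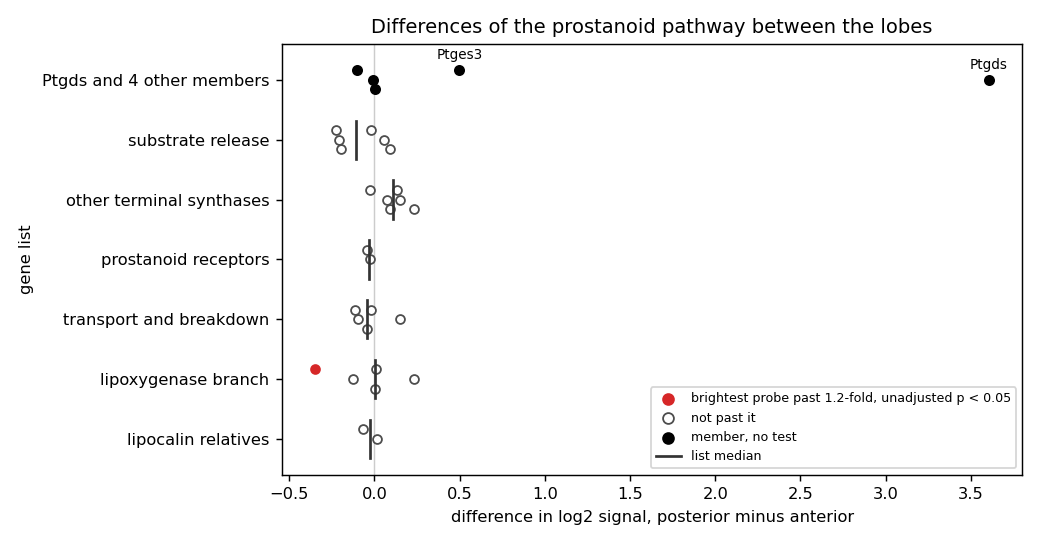
Difference in log2 signal, posterior minus anterior, for the 5 measured members (black) and for the brightest tested probe of each gene of the 6 pathway lists, with the median of each list as a bar. Filled red is past 1.2-fold with an unadjusted p under 0.05. Ptgds lies at 3.61 and Ptges3 at 0.50, and every gene of the lists lies between -0.35 and 0.23 on its brightest probe. Mgll passed on its other probes, at -0.45 and -0.32, and is open here.

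Markers of the known sources of Ptgds were given beside it, since a dissected lobe can hold any of them. Their part in the Ptgds difference was not tested. The marker lists, like the pathway lists, were chosen with earlier results of these data known, so their counts and p-values are no independent support. Genes of leptomeningeal fibroblasts were higher in the posterior lobes. All 12 were measured, 11 had a difference above 0 over the brightest probe, the median was 0.62 and 8 passed the 1.2-fold criterion, all of them higher. Of all tested symbols 10.1% passed this criterion in either direction, the share to set beside the counts of every marker list. Their summed signal was 8118 and 9315 on the anterior and 14668 and 17185 on the posterior arrays. Dcn, the matrix proteoglycan decorin, rose from 11.77 and 11.69 to 12.67 and 12.65 on ILMN_2747959 (difference 0.93, standard error 0.071, adjusted p = 0.023 by limma), and Ogn, the proteoglycan osteoglycin, rose from 8.01 and 7.93 to 9.73 and 10.21 (difference 2.00, standard error 0.18, adjusted p = 0.035 by limma). Slc6a13, a GABA and taurine transporter of the leptomeninges, was at 0.56 and passed the criterion alone. Col1a2 had the lowest difference, -0.039. Only 4 of the 12 genes passed the criterion without posterior replicate 2 and with the methods' t-test, and 11 passed without anterior replicate 2. Without either posterior array, and with the methods' t-test, 0 of all tested probes passed the adjusted p, and this covers Otx2 and the myelin genes too. With a posterior array left out the spread comes from the anterior pair alone, and the loss of all adjusted calls there is not particular to these genes. The methods' t-test uses all 4 arrays. With it 10 of the 12 oligodendrocyte genes passed the 1.2-fold criterion, against 4 of the leptomeningeal genes. The median of the leptomeningeal genes was 0.77 when posterior replicate 1 was left out and 0.38 when replicate 2 was, and that of the oligodendrocyte genes was -0.93 and -0.76.

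Between replicates most genes of this list were higher on replicate 2, as Ptgds was after normalization. On posterior replicate 2, 10 of the 12 genes had a higher log2 signal than on posterior replicate 1, with a median difference of 0.36, where 52.9% of all tested genes were higher and their median was 0.0097. On the anterior arrays 10 of the 12 were higher on replicate 2 as well, by a median of 0.32, against a median of 0.0041 over all tested genes. The Ptgds differences for the same array pairs were 0.66 and 0.22. This shift was not particular to the leptomeningeal list. Of the 6 tested choroid plexus genes, 5 were higher on posterior replicate 2 (median 0.21) and 4 on anterior replicate 2 (median 0.37). Of the 12 oligodendrocyte genes, 3 were higher on posterior replicate 2 (median -0.10) and 7 on anterior replicate 2 (median 0.033). For the 7 neuron genes these counts were 5 and 2.

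Choroid plexus epithelium gave a mixed picture. Only 6 of its 12 genes were tested, with a median difference of -0.31 that turned to 0.23 without anterior replicate 2 and 0.042 without posterior replicate 1, and Folr1, Kcne2, Kl, Slc4a5 and Sostdc1 did not reach detection on 2 arrays. Their summed signal was 4878 and 15109 on the anterior and 8360 and 10766 on the posterior arrays. This sum includes Otx2, with log2 signals of 8.32 and 8.16 in the anterior and 12.31 and 11.82 in the posterior lobes. On posterior replicate 1 Otx2 was the brightest of these 6 genes, so the sum does not follow the epithelium alone. Ttr, transthyretin, the most abundant transcript of this epithelium, had log2 signals of 9.10 and 13.34 in the anterior and 8.37 and 11.85 in the posterior lobes. The order was thus by replicate and not by lobe. On the same arrays the log2 signals of Ptgds were 7.91 and 8.13 in the anterior and 11.29 and 11.96 in the posterior lobes. Within each lobe both genes were higher on replicate 2 after normalization. For Ptgds in the anterior lobes the ratio of replicate 2 to replicate 1 was 0.970 on the deposited scale. Between lobes of the same replicate number Ptgds was higher and Ttr lower in the posterior. Enpp2, the autotaxin gene, was 0.41 lower on the log2 scale in the posterior lobes on its brightest probe, past the 1.2-fold criterion alone. Otx2, a homeobox gene that also marks the granule cell progenitors of the posterior lobes, rose by 3.82 (standard error 0.18, adjusted p = 0.015 by limma). Of the 4 genes past the criterion, 2 were higher and 2 lower, and 1 was left without posterior replicate 1 or with the methods' t-test.

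Oligodendrocyte genes went the opposite way to Ptgds. All 12 had lower signals in the posterior lobes, with a median of -0.86, and 11 passed the 1.2-fold criterion. Their summed signal was 119405 and 117537 on the anterior and 83009 and 77571 on the posterior arrays. Mag, Mobp, Mal and Ugt8a, which encode myelin proteins and an enzyme of myelin lipid synthesis, fell past the adjusted p, for example Mag from 13.82 and 13.75 to 12.81 and 12.77 (difference -0.99, standard error 0.062, adjusted p = 0.015 by limma). Mbp and Cldn11, the brightest of the list, were at -0.45 and -0.42 on their brightest probes and passed the criterion alone. The other tested probes of Mbp were at -1.15, -0.18, -1.32 and -1.07. Endothelial genes had a median of 0.021 and microglial genes one of 0.034, with Cldn5 at 0.055, Flt1 at -0.14, Cx3cr1 at 0.034 and Csf1r at 0.00047 on their brightest probes, and the neuron list had a median of -0.052. Among these 3 lists a probe of the endothelial gene Cdh5 alone passed the 1.2-fold criterion.

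**Figure D3:**
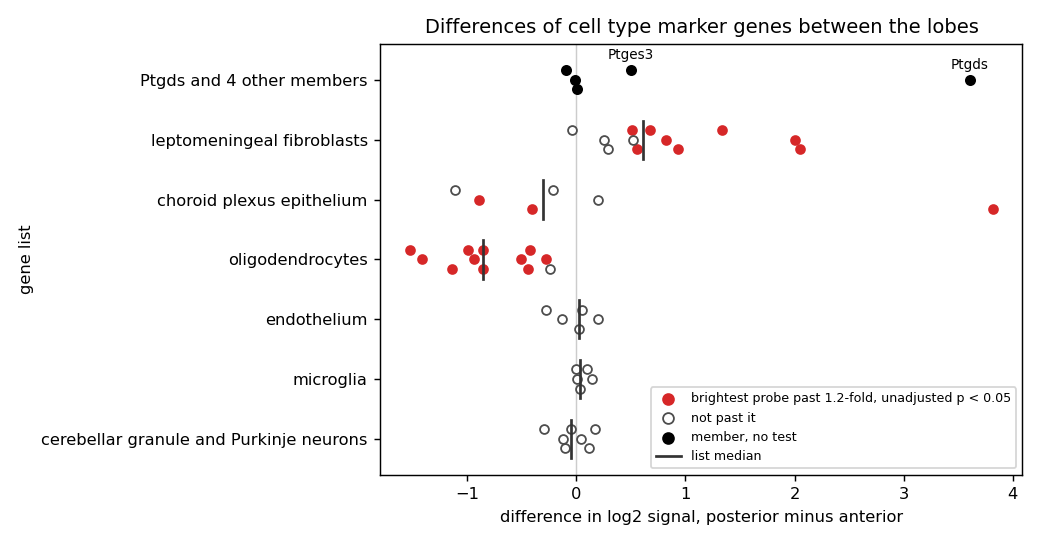
Difference in log2 signal, posterior minus anterior, for the 5 measured members (black) and for the brightest tested probe of each gene of 6 cell type lists, with the median of each list as a bar. Filled red is past 1.2-fold with an unadjusted p under 0.05. The leptomeningeal median is 0.62, the oligodendrocyte median -0.86, and the far right point of the choroid plexus list is Otx2 at 3.82. Prlr of the choroid plexus list and Cdh5 of the endothelium passed on a dimmer probe and are open here.

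The probes with the profile most like that of Ptgds were found by the root mean square distance between log2 signals over the 4 arrays, each centred on its own mean, among 19913 probes compared. The nearest was Otx2 (ILMN_2691752), at a distance of 0.44, with log2 signals of 8.32, 8.16, 12.31 and 11.82. It was followed by H19, an imprinted long noncoding RNA, at 0.56 (ILMN_1256343), by Moxd1, a monooxygenase-like gene, at 0.67, by the other H19 probe at 0.71, and by Mgp, the matrix Gla protein, at 0.78. All had both posterior arrays above both anterior arrays. This follows from how they were picked, since the Ptgds profile is mostly the difference between the lobes on which the gene was chosen. Their differences were 3.82 for Otx2, 2.54 and 2.22 for H19, 2.34 for Moxd1 and 2.05 for Mgp, so Otx2 alone among them exceeded Ptgds. Between the posterior replicates they parted. Ptgds was 0.66 higher on replicate 2, Mgp 0.54, the H19 probes 0.30 and 0.31 and Moxd1 0.042, while Otx2 was -0.49 on the same scale. The same 5 probes were nearest under the 4 other normalizations tried.

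**Figure D4:**
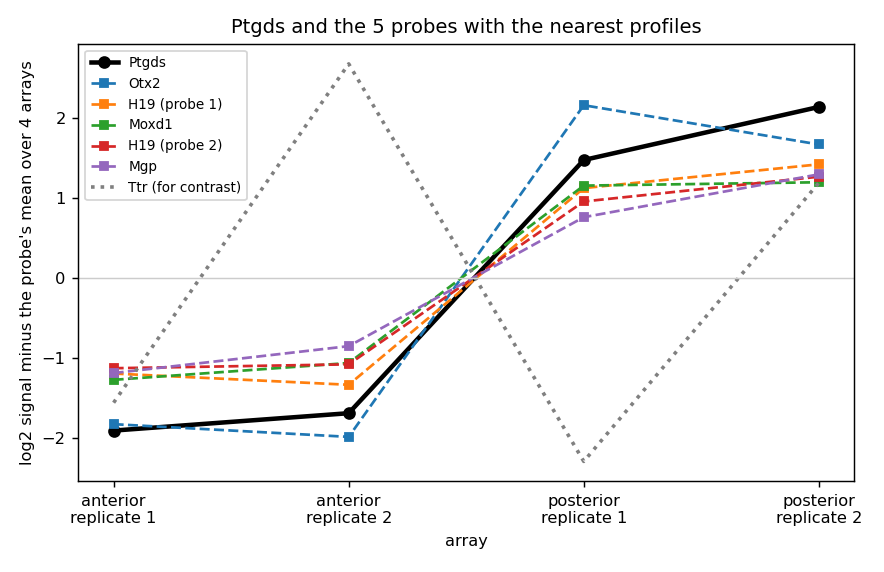
Log2 signal minus the mean of each probe over the 4 arrays for Ptgds (black), the 5 probes with the nearest profiles (dashed) and Ttr (dotted grey, for contrast). The 6 probes of the first set step up between the anterior and the posterior arrays, Otx2 is lower and Ptgds higher on posterior replicate 2 than on replicate 1, and Ttr is high on both arrays of replicate 2.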

How the data were processed

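Total RNA of the lobes was isolated with Tri Reagent, labelled with an Ambion MessageAmp kit and hybridized to MouseWG-6 v2.0 arrays. Per the file headers the authors' table was exported by GenomeStudio 1.9.0 without normalization. The authors deposited the mean bead intensity, its SD and the number of beads of 45281 probes on 4 arrays. They also deposited a detection score, which is 1 minus the detection p-value. Another 16 columns were not used.

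In R 4.3.3 the intensities were quantile normalized, floored at 1 and log2 transformed. Every probe detected on 2 or more arrays, at a detection p-value under 0.05, entered a fit by limma 3.58.1 with lmFit and with eBayes using a trend on intensity, and p-values had Benjamini-Hochberg adjustment over all of them. A gene counts as past a threshold if any of its tested probes is, and list medians and summed signals use the brightest tested probe of each gene. The code of the fit was tried on simulated data with independent noise for each probe and array. That setting lacks the replicate differences that the lobes shared, so it does not show how the fit behaves with them.

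The 7 genes and all lists were chosen with earlier results of these data known. Named were every member probe, in each pathway list up to 3 genes with the largest difference and lobes that did not overlap, in each marker list the genes past the adjusted p and the 2 brightest, and the 5 probes most like Ptgds. Further list genes named, such as Hpgds, Ptgdr and Pla2g4a, were chosen after their values were seen. Of the array symbols, 71.4% are in the RefSeq gene table of GRCm38.p6, used for names only. Its promoter table gave the sequences. The number of arrays limits the precision. The alternatives were neqc (offset 16), no normalization, a common 75th percentile, cyclic loess, other detection filters, no trend, the methods' t-test, a replicate block and leaving out each array.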

Additional observations from a re-analysis of the deposited data

How the results depend on the processing

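The log2 difference of Ptgds was 4.00 with neqc background correction, at least 3.60 under the other normalizations, and 3.26 to 3.95 when each array was left out in turn. That of Ptges3 was 0.29 to 0.70 over all of these, and those of Ptges and Ptges2 took either sign within 0.15 of 0. Pathway genes past the 1.2-fold criterion numbered 2, 1 without normalization, 1 with the methods' t-test and 1 to 6 when an array was left out. Those past the adjusted p numbered 0, and 0 to 3 when an array was left out. The 23 probes past the adjusted p by limma became 123 without normalization, 73 without a filter, 13 without the trend, 0 with the methods' t-test and 0 to 2538 when an array was left out, where anterior replicate 1 gave 2538, anterior replicate 2 gave 221 and each posterior array gave 0. In these fits the pair of the other lobe alone supplies the spread. With a replicate block they became 588, and the pathway counts stayed at 0 and 2. The labels link the samples by replicate number alone, which goes with the Xist signal. The differences between replicates 1 and 2 of both lobes had a correlation of 0.46 across tested probes, which are not independent. The leptomeningeal median was 0.38 to 0.82 and the oligodendrocyte median -0.93 to -0.76 over all settings. The endothelial median was -0.11 to 0.11, the microglial one 0.0078 to 0.19 and that of the neurons -0.084 to 0.11, so those of endothelium and neurons took either sign. The counts of marker genes under these settings were added after seeing the data. Intensities without background subtraction understate the differences of dim probes, and the anterior Ptgds signal was dim. The cause of these shifts was not tested.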
